A study of Mus musculus with 20 samples.

Results

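Peaks of the transcription factor ATF4 at the ends of long noncoding RNA (lncRNA) genes were examined in C2C12 cells, a mouse myoblast line of wild-type genotype. The members are the peaks of the thapsigargin list whose centre lay within 1 kb of an end of a RefSeq lncRNA gene and more than 1 kb from every end of a protein-coding gene. This held for 335 of 8619 peaks, or 3.89% of the list. The cells had been treated for 6 h with 100 nM thapsigargin or with DMSO, the solvent, and ATF4 was mapped by CUT&Tag, in which an antibody guides a transposase to the protein and the DNA beside it is tagged and sequenced. The series holds 20 samples in 10 groups of 2 replicates, with CHOP, CEBPβ, CEBPγ and H3K27Ac as the other targets, and 8 of the groups are not used here. Each ATF4 treatment is represented by 1 peak list of the authors, which gives positions only, so no replicate error, peak height or read depth is known. The members were chosen by the measured positions of the thapsigargin peaks, so their number and their distances to gene ends are a description. Shares carry 95% intervals by Wilson's method, which reflect counting error alone. Comparisons between peak classes are descriptions of these lists, with no test over peaks, since peaks are not replicates of a treatment.

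ATF4 is a basic leucine zipper factor whose translation rises when the kinases of the integrated stress response phosphorylate eIF2α. It binds DNA as a dimer, often with a C/EBP partner, at composite sites that join an ATF and a C/EBP element. Thapsigargin empties the calcium store of the endoplasmic reticulum (ER), which activates this response. LncRNA genes give rise to transcripts without a long reading frame, and many of them start at promoters or enhancers of neighbouring genes. Some have a known product besides the transcript itself, such as the small nucleolar RNAs (snoRNAs) and microRNAs (miRNAs) released from their introns.

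The promoter sequences of these lncRNAs bear on the best known DNA element of ATF4. RefSeq promoter windows of GRCm38.p6, which run from 250 bases before to 50 bases after a gene's start, were available for 257 of the 333 nearest lncRNA genes, and for 110 genes a whole window of 300 bases lay inside the member peak. Of these 110 windows, 13 held TGATGNAA, the core of the ATF4-C/EBP composite element, on either strand. Of the 13 genes, 3 had a DMSO peak under the thapsigargin peak, as did 14 of all 110 genes with a window. Their windows are shown whole because they are the member promoters with this element that were also marked without added stress. Capitals mark TGATGNAA or its reverse complement, TGANTCA (a form that includes the AP-1 element) and CACGTG (an E-box).
Gm29906 (chr1:70918460-70918759, minus strand): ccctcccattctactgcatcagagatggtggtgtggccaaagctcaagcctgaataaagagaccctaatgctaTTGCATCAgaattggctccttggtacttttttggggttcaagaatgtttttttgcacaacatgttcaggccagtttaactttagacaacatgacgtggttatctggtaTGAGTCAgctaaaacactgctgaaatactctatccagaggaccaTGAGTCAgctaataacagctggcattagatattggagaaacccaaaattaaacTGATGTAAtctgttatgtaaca
Gm36111 (chr11:119191701-119192000, plus strand): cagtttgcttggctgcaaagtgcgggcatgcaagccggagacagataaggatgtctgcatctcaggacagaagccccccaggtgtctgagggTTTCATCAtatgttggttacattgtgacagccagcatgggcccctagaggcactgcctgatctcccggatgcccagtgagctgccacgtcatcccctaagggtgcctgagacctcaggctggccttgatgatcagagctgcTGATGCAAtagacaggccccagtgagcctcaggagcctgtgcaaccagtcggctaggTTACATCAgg
1810008I18Rik (chr7:65802787-65803086, plus strand): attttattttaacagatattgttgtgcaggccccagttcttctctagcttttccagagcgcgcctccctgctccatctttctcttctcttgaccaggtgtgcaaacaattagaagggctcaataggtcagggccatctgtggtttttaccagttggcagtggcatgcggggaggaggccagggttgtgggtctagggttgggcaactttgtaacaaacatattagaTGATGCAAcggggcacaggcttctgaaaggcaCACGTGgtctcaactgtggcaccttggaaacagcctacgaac

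The Gm36111 window held 3 copies of TGATGNAA and the Gm29906 window 2 copies together with 2 AP-1 elements. In 1810008I18Rik the single copy lay at -20.5 bp from the gene start. The other 10 genes with this element had no DMSO peak, and some of them are shown with up to 15 bases on each side, the element in capitals and turned so that it reads in its own direction. Bach2os, Gm36181, 5033421B08Rik and Gm11665 have the widest peaks of the 10. Their copies lay 892.5, 484, 341.5 and 443.5 bp from the peak centre, farther than any other copy of this element found. These distances depend on where the promoter window lay in the peak. Copies outside the window could not be seen. Gm34488 has the copy nearest to its peak centre, at 4.5 bp, and Gm33801 shows a T in the open position.
Bach2os (chr4:32571625-32571662, plus strand): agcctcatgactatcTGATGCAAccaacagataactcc
Gm36181 (chr13:33005923-33005960, plus strand): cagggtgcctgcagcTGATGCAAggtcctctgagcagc
5033421B08Rik (chr12:8510924-8510961, plus strand): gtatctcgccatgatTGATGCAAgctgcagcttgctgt
Gm11665 (chr11:104562225-104562262, plus strand): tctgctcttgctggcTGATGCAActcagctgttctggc
Gm34488 (chr11:3566218-3566255, minus strand): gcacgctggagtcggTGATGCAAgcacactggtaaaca
Gm33801 (chr17:25539731-25539768, plus strand): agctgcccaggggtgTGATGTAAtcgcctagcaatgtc

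Among all 16 copies in the 13 windows, 10 read TGATGCAA, 5 read TGATGTAA and 1 read TGATGAAA. Their median distance from the peak centre was 100 bp, with 10 of 16 within 150 bp. The window centres themselves lay a median of 150 bp from the peak centre, with 55 of 110 within that distance. The form TGANTCA was found in 23 of the 110 windows, 4 of which held the composite element too. It takes in the AP-1 element, TGACTCA or TGAGTCA, which Fos and Jun proteins bind. It also matches TGAATCA and TGATTCA, the only forms found at Gm11665, Gm41309, LOC115487176, Gm32011 and A130051J06Rik. AP-1 windows are shown for D730003I15Rik and E230016M11Rik, the lncRNAs near Atf3 and Gadd45a, and for Gm52556 and Gm52868, where the element lay closest to the peak centre, at 0.5 and 8.5 bp. Neither motif contains the other.
D730003I15Rik (chr1:191224428-191224464, plus strand): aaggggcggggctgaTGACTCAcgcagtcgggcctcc
E230016M11Rik (chr6:67036517-67036553, plus strand): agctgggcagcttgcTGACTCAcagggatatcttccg
Gm52556 (chr2:72351824-72351860, minus strand): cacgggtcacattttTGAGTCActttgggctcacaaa
Gm52868 (chr6:97221904-97221940, minus strand): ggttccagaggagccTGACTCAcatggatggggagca

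As shares, TGATGNAA was present in 11.8% of the 110 windows (interval 7.04% to 19.2%), against 4.73% of the 9533 lncRNA promoters in the table, 13 on Y included, and 4.06% of all 27025 promoters, taking 1 window per gene. Coding promoters that lay inside a thapsigargin peak held it in 4.67% of 1991 windows, and coding promoters inside a DMSO peak in 35.2% of 122 (interval 27.3% to 44.1%). TGANTCA was present in 20.9% of the member windows (interval 14.4% to 29.4%), in 9.49% of all lncRNA promoters, in 7.93% of all promoters and in 4.67% of the coding promoters inside a thapsigargin peak. The cAMP response element TGACGTCA was in 2.73% of member windows, 1.02% of lncRNA promoters, 1.88% of all promoters and 5.27% of coding promoters inside a thapsigargin peak. CACGTG was in 15.5% of member windows (interval 9.88% to 23.4%), 6.03% of lncRNA promoters, 7.24% of all promoters, 9.39% of coding promoters inside a thapsigargin peak and 13.9% of those inside a DMSO peak (interval 8.89% to 21.2%). The palindromic C/EBP element TTGCGCAA was in none of the 110 windows, which allows a share of up to 3.37% by the Wilson interval, and in 0.185% of all promoters. The looser C/EBP form TTNNGNAA, which also matches TTGCGCAA, was in 35.5% of member windows, 46.0% of lncRNA promoters, 40.7% of all promoters and 26.9% of coding promoters inside a thapsigargin peak. CCACG, a part of the ER stress element, was in 49.1% of member windows, 24.5% of lncRNA promoters and 32.7% of all promoters, and in 54.8% of coding promoters inside a thapsigargin peak and 49.2% of those inside a DMSO peak. TGACGTG was in 4.55% of member windows, 1.59% of lncRNA promoters, 1.99% of all promoters and 4.02% of coding promoters inside a thapsigargin peak. The general E-box CANNTG, which also matches CACGTG, was in 80% of member windows, 78.3% of lncRNA promoters, 72.1% of all promoters and 56.1% of coding promoters inside a thapsigargin peak. CCACG and TGACGTG can overlap CACGTG. The median GC content was 54.8% in the member windows, 48.7% in all lncRNA promoters and 62.7% in coding promoters inside a thapsigargin peak, and the part of base composition in these shares was not tested. A window that must fit inside a peak also favours wide peaks.

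**Figure D1:**
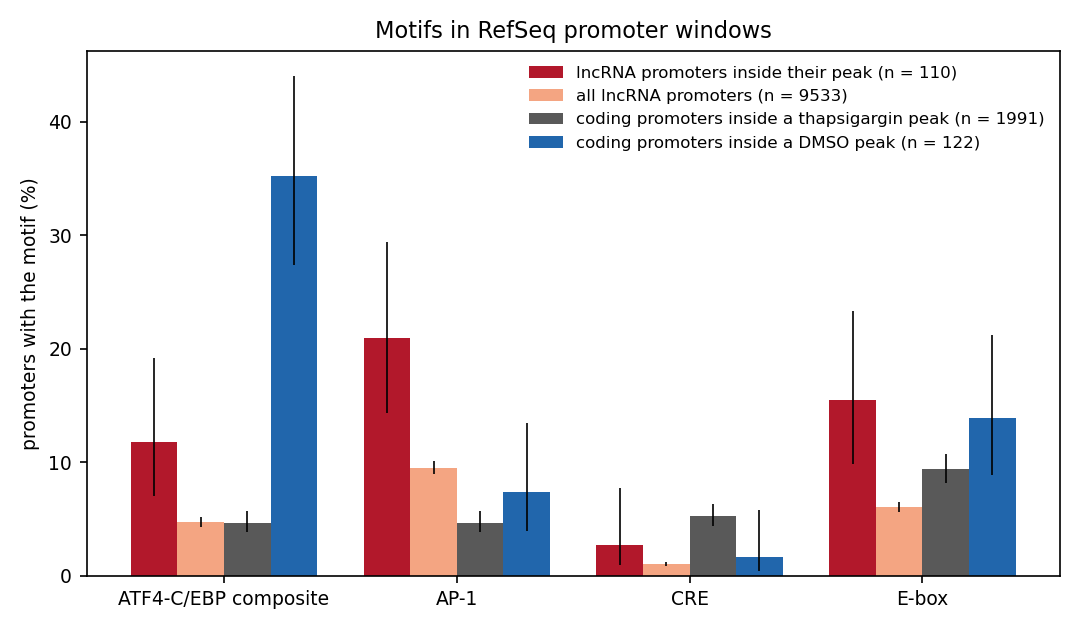
Percent of promoter windows of 300 bases that hold each motif on either strand, with 95% Wilson intervals as lines. In each group the bars on the left are lncRNA promoters inside their member peak, then all lncRNA promoters. Those on the right are coding promoters inside a thapsigargin peak, then those inside a DMSO peak. The composite element reaches 35.2% in the last and 11.8% in the first, while TGANTCA, labelled AP-1, is at 20.9% in the first.

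Most lncRNA-end peaks were found in the thapsigargin list alone. Of the 335 members, 28 (8.36%, interval 5.85% to 11.8%) shared at least 1 bp with a DMSO peak, against 9.25% of all thapsigargin peaks. The share at lncRNA ends lay near that of the whole list and is not a result about these sites. It was 8.93% (31 of 347) for peaks at a lncRNA and a coding gene end, 8.49% (203 of 2392) for peaks at coding ends only and 9.65% (535 of 5545) for the remaining peaks. With peak centres within 100 bp as the match, 11 members (3.28%) were shared, against 4.76% of all thapsigargin peaks. With centres within 1 kb it was again 28 members, against 9.26% of all peaks. None of the 307 other members had the centre of a DMSO peak within 5 kb, and of all 7822 thapsigargin peaks without a DMSO overlap 24 had one. From the DMSO side, 30 of 803 peaks met the same rule, and 99.5% of all DMSO peaks overlapped a thapsigargin peak. Of the 30, 25 lay over a member. The other 5 lay over thapsigargin peaks whose own centres fell outside the rule, at Gt(ROSA)26Sor, Gm9929, Gm15850, Gm44040 and Gm31047. At Gm9929, beside the ER stress sensor gene Atf6, the thapsigargin peak was centred 887.5 bp and the DMSO peak 1510 bp from the coding gene end.

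The 28 shared sites carried wide peaks. Median widths there were 1498 bp for the thapsigargin peaks and 1048 bp for the DMSO peaks, the thapsigargin peak being the wider at 26 sites. The ratio of widths had a median of 1.37 and ranged from 0.856 to 4.58. At 23 sites the DMSO peak lay wholly inside the thapsigargin peak. The 307 members without a DMSO overlap were narrower, at a median of 1006 bp. Over all thapsigargin peaks, likewise, the medians were 1377 bp with a DMSO overlap and 1005 bp without. Width depends on read depth and on the peak threshold, which are unknown, and is not a measure of occupancy.

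Gm46850, where the peak was centred inside the coding gene Rusc2, had the widest of the shared peaks, with 2589 bp after thapsigargin (mm10, chromosome 4, 43381640 to 43384228) against 565 bp after DMSO. The peak at 4930504D19Rik was 1251 bp wide after thapsigargin against 298 bp after DMSO, with centres 14.5 bp apart. At Gm52678, inside Foxo6, the widths were 2377 bp after thapsigargin against 1857 bp after DMSO, the widest DMSO peak of the 28. These sites show how far apart the width ratios of the shared peaks were.

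At Trp53cor1, the lncRNA known as lincRNA-p21, which p53 induces, the peak was 1308 bp wide after thapsigargin (chromosome 17, 29078227 to 29079534) against 1320 bp after DMSO, with 1263 bp in common. It lay 245.5 bp from the lncRNA end and 12.1 kb from the nearest coding end, that of Cdkn1a, which encodes the cell cycle inhibitor p21. Trp53cor1 and Gm27011 were the 2 sites where the DMSO peak was the wider, and at Gm27011 the widths were 688 bp after thapsigargin against 804 bp after DMSO. The nearly equal widths at Trp53cor1 were shared by Gm34719, which had 1633 bp after thapsigargin against 1614 bp after DMSO and lay 191 kb from Dio3, its nearest coding gene. Widths were also close at Gm38877, with 1574 bp after thapsigargin against 1519 bp after DMSO. At 1810008I18Rik they were 1172 bp after thapsigargin against 1137 bp after DMSO.

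The nearest coding genes of the shared sites were of many kinds. The 9330179D12Rik peak was centred inside Ccnd2, which encodes cyclin D2, and was 2082 bp wide after thapsigargin against 979 bp after DMSO. 2410080I02Rik lies near Klf9, a Krüppel-like factor gene, at 6.04 kb from the coding end, with 2193 bp after thapsigargin against 1645 bp after DMSO. Crnde, a lncRNA described in colorectal tumours, had a peak of 1819 bp after thapsigargin against 777 bp after DMSO, centred 1203 bp from the end of the homeobox gene Irx5. Carmn, which holds the genes of miR-143 and miR-145 and is known from the cardiac and smooth muscle lineages, had 1663 bp after thapsigargin against 701 bp after DMSO, 23.2 kb from the cytokine gene Il17b. At E230016M11Rik the widths were 1473 bp after thapsigargin against 1146 bp after DMSO. That peak lay inside the stress gene Gadd45a, 1004 bp from its end, while the DMSO peak there was centred 835.5 bp from the same end. The remaining ones of the 20 widest shared sites lay at Gm36111, Gm26812, Gm39344, Gm17546, Gm46587, Gm38877, Gm39359, Gm29906, Gm2885, Gm30044, Gm39211 and Gm41699, and were 1322 to 2296 bp wide after thapsigargin against 530 to 1519 bp after DMSO.

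**Figure D2:**
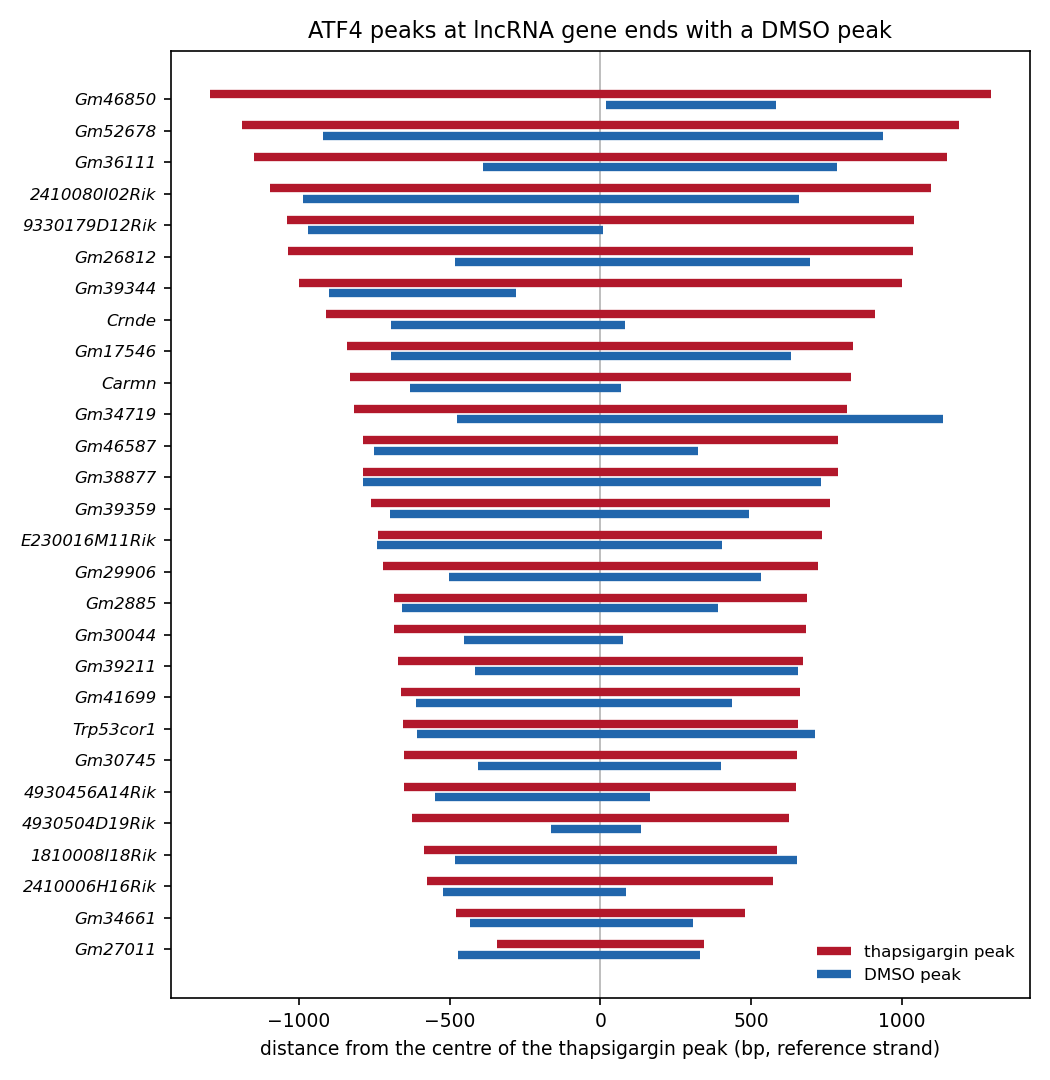
Extent of the thapsigargin peak (upper line, red) and the DMSO peak (lower line, blue) at each of the 28 shared sites, in bp from the centre of the thapsigargin peak and in order of its width. The DMSO peak lies inside the thapsigargin peak at 23 sites and is the wider one at Trp53cor1 and Gm27011.

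The 10 widest peaks without a DMSO overlap included 4 at lncRNAs without a Gm, Rik or LOC symbol. Bach2os, antisense to the bZIP repressor gene Bach2, had the widest member peak of all with 2767 bp (chromosome 4, 32569368 to 32572134), 911 bp inside the lncRNA from its start and 15.4 kb from the nearest end of Bach2. Rab10os, named after the neighbouring Rab GTPase gene Rab10, had 2297 bp and Dleu2 had 2333 bp. Dreh had 2248 bp, centred 576.5 bp before its start. The others among the 10 widest were 1700034P13Rik inside Vcpip1 (2609 bp), Gm34343 at 9.58 kb from the pluripotency factor gene Klf4 (2414 bp), Gm46543 inside Cryzl1 (2380 bp), Gm40385 (2374 bp), Gm12602 (2281 bp) and Gm36181 inside Serpinb9 (2176 bp). In all, 44 of the 335 members (13.1%) were among the widest 10.0% of the list. At the other end, the narrowest member had 352 bp and lay at the 3' end of Gm26812, 2.10 kb from the end of Slc7a5, an amino acid transporter gene. Gm26812 and A630001O12Rik were the 2 lncRNAs that were nearest to 2 members each. The other member at Gm26812 lay at its start and was a shared one, with 2071 bp after thapsigargin against 1178 bp after DMSO.

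Over all members the median width was 1027 bp (quartiles 838.5 and 1341 bp), against 1037 bp (802.5 and 1326 bp) for the whole list. Peaks at coding ends only had a median of 1028 bp. Peak centres lay a median of 396 bp from the lncRNA end, and 224 of the 335 peaks covered that end. Another thapsigargin peak was centred within 5 kb of 14 members (4.18%), as it was for 3.69% of all peaks.

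**Figure D3:**
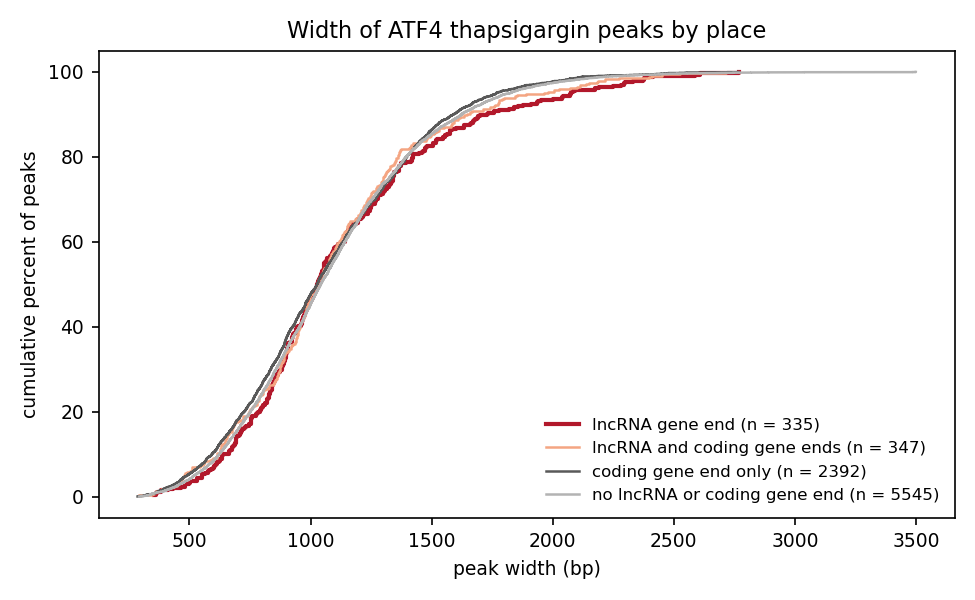
Cumulative percent of thapsigargin peaks up to each width in bp, for peaks at lncRNA ends (red), at lncRNA and coding ends together, at coding ends only and elsewhere. The 4 curves run close together, with medians of 1027, 1027, 1028 and 1043 bp.

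The members lay more often at the start of a lncRNA than at its 3' end. The strand was known for 259 members, and the nearer end was the gene start for 191 (73.7%, interval 68.1% to 78.7%) and the 3' end for 68. The share was 92.9% (261 of 281) for peaks at a lncRNA and a coding end, measured at the lncRNA, and 95.7% (2156 of 2254, interval 94.7% to 96.4%) for all peaks within 1 kb of a coding gene end, measured at the coding gene. The rule leaves out lncRNA-end peaks that are also at a coding end, the class with 92.9%, so the members' share depends on the rule. The intervals for members and coding ends do not overlap, but for that reason no conclusion is drawn, and no test of the difference was made. Among shared members it was 18 of 21 (85.7%, interval 65.4% to 95%) and among the others 173 of 238 (72.7%, interval 66.7% to 78.0%), intervals that overlap. Around the 191 starts the peak centres were spread to both sides, 90 before the start and 101 after it, with a median of 42.5 bp after it and quartiles 218 bp before and 373 bp after. The peak covered the start at 151 of them.

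**Figure D4:**
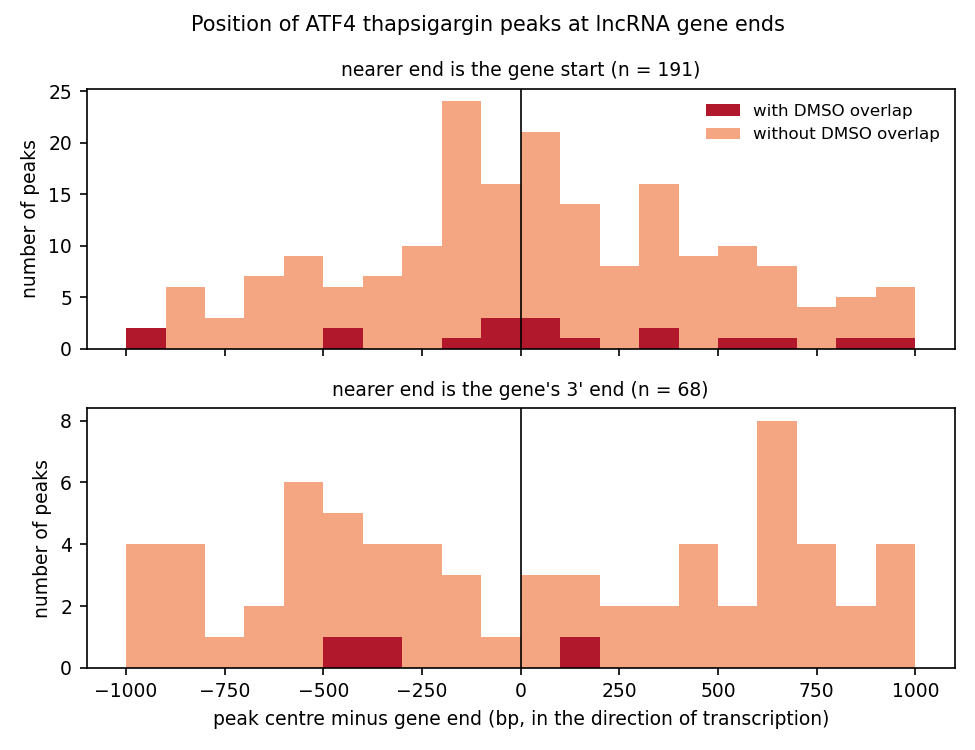
Number of member peaks by the distance of the peak centre from the nearer lncRNA end, in bins of 100 bp and in the direction of transcription, for peaks nearest to a start (upper panel, n = 191) and to a 3' end (lower panel, n = 68). Peaks with a DMSO overlap are dark; the counts are highest near 0 at starts and spread over the whole window at 3' ends.

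By gene, 687 of 12697 lncRNA genes on chromosomes 1 to 19 and X (5.41%) had a thapsigargin peak centred within 1 kb of an end, and 61 (0.480%) had a DMSO peak there. Of the 687, 343 had a member peak. Among 21631 coding genes the shares were 15.1% in thapsigargin and 1.29% in DMSO. Relative to coding genes, the members ranged from just over 1 kb to 1326 kb from the nearest coding end, the latter at Gm13470, whose nearest coding gene is Zeb2. The median was 19.3 kb, with quartiles of 5.90 and 50.1 kb. A coding gene surrounded the peak centre at 110 members (32.8%), of which 9 (8.18%) were shared with DMSO, against 19 of the 225 outside coding genes (8.44%). The share of all thapsigargin peaks centred inside a coding gene was not determined. The shared members were 8 of 71 (11.3%) between 1 and 5 kb from a coding end, 16 of 180 (8.89%) between 5 and 50 kb and 4 of 84 (4.76%) farther away, beside the 9.25% of all peaks. The median widths of these groups were 1130, 1052 and 954 bp, and neither trend was tested. Members were found on chromosomes 1 to 19 and X, 5 on X and up to 27 on chromosome 1.

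Most of the lncRNAs carry a systematic symbol. At 240 members the nearest lncRNA has a Gm number, at 67 the name of a Rik clone, at 4 a LOC number, and at 24 another symbol, 2 of which are formed from a sequence accession. Of these 24, Crnde, Carmn and Trp53cor1 had a DMSO peak (3 of 24, beside 8.36% of all members and 9.25% of all thapsigargin peaks).

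**Figure D5:**
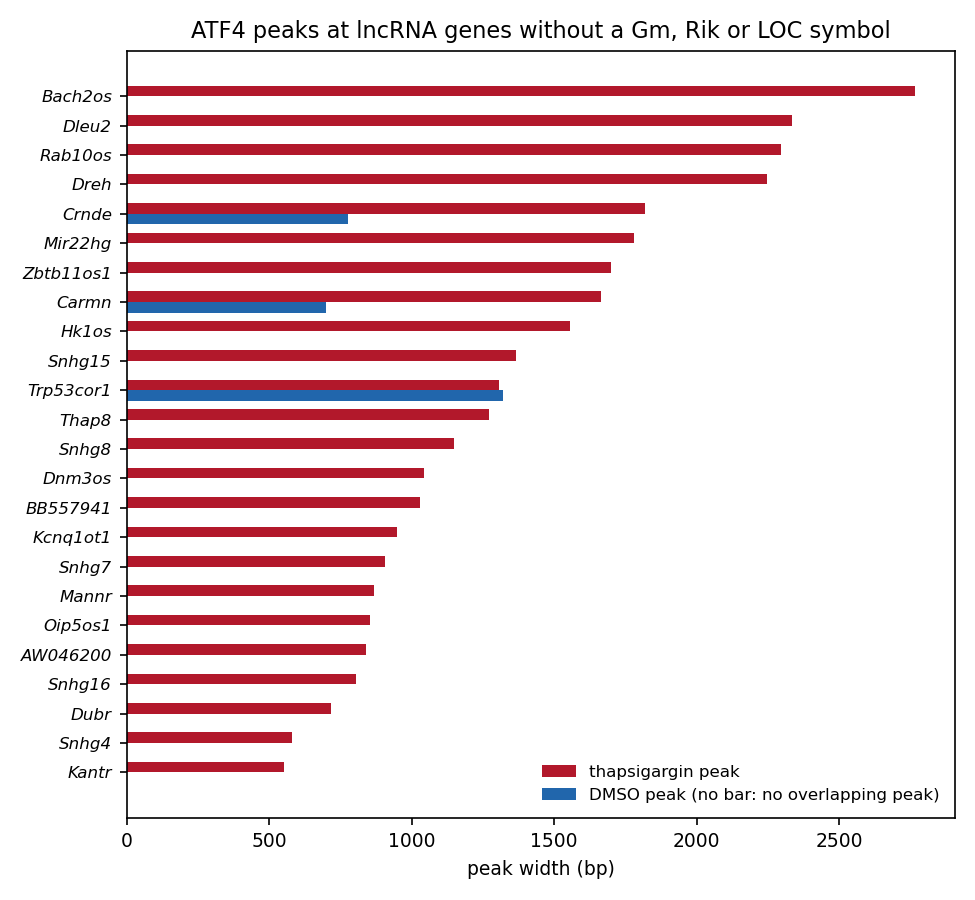
Width in bp of the thapsigargin peak (red) and of the overlapping DMSO peak (blue) at the 24 members whose lncRNA has no Gm, Rik or LOC symbol, in order of thapsigargin width. A DMSO bar is present at Crnde, Carmn and Trp53cor1 alone, and thapsigargin widths run from 552 bp at Kantr to 2767 bp at Bach2os.

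The snoRNA host genes, whose introns carry the guide RNAs for ribosomal RNA modification and whose spliced transcripts are often turned over during translation, were among the lncRNAs of known role. Of 21 listed hosts in the table, 5 had a member peak, beside 2.70% of all lncRNA genes, and another 3, Gas5, Snhg1 and Snhg10, had a thapsigargin peak that also lay within 1 kb of a coding end, together 8 of 21 beside the 5.41% of all lncRNA genes with any thapsigargin peak at an end. None of the 21 had a DMSO peak at an end, beside 0.480% of all lncRNA genes, a share at which 21 genes are too few to tell. The list was chosen with earlier results known, and hosts without a peak included Dancr, Zfas1, Snhg12 and Snhg5. Snhg15 had a peak of 1367 bp (chromosome 11, 6527924 to 6529290), centred 153 bp from its start, Snhg8 had 1150 bp, Snhg7 908 bp, Snhg16 804 bp and Snhg4 580 bp. The Snhg8 peak covered the snoRNA gene Snora24 and the Snhg15 peak the snoRNA gene LOC115487884. Outside that list, the shared peak at 2410006H16Rik, 1148 bp wide after thapsigargin against 606 bp after DMSO, covered Snord49b and Snord49a in thapsigargin and Snord49b in DMSO. The Snhg15 promoter, shown because it has the widest peak of the listed hosts, held a cAMP response element and an E-box (in capitals) and no TGATGNAA.
Snhg15 (chr11:6528711-6529010, minus strand): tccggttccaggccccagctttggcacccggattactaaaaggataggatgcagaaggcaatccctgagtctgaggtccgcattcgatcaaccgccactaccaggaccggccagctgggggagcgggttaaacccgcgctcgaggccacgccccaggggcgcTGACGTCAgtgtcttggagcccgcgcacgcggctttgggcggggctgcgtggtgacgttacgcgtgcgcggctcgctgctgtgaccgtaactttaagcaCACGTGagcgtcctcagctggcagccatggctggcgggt

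MiRNA genes lay inside the nearest lncRNA of 9 members. The share of all lncRNA genes that hold a miRNA gene was not determined. The count is therefore a description, and whether miRNA genes were more common at members was not tested. Dnm3os, a transcript antisense to Dnm3, holds miR-199a-2 and miR-214, and its peak of 1044 bp (chromosome 1, 162217228 to 162218271) covered the miR-199a-2 hairpin gene, whose centre lay 0.119 kb from the peak centre. The Mir22hg peak, 1780 bp wide, was centred 835.5 bp before the gene start and 3.06 kb from Mir22. The Dleu2 peak lay at the gene start, 49.9 kb from Mir16-1 and 49.7 kb from Mir15a. A330023F24Rik, host of miR-29b-2 and miR-29c, had 882 bp at its start, and Gm49890, host of miR-31, had 1334 bp at its start, 31.0 kb from Mir31. The others were Carmn, the one with a DMSO peak (1 of 9, beside 9.25% of all thapsigargin peaks), 2900076A07Rik with Mir1839, Snhg4 with Mir1949 and Dubr, which Mir6363 overlaps on the opposite strand. The strands of Carmn and Snhg4 were not known here. For each miRNA gene of Dleu2, A330023F24Rik, Mir22hg, Gm49890 and Dnm3os, 1 mature miRNA from RefSeq is shown and the other is left out. The seed (bases 2 to 8) is in capitals, since the seed sets which transcripts a miRNA can pair with. The seed AGCAGCA is common to miR-15a and miR-16, and AGCACCA to miR-29b and miR-29c.
Dleu2, miR-15a-5p: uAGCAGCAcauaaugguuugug
Dleu2, miR-16-5p: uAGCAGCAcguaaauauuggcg
A330023F24Rik, miR-29b-3p: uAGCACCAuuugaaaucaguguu
A330023F24Rik, miR-29c-3p: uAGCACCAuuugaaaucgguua
Mir22hg, miR-22-3p: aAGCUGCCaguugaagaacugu
Gm49890, miR-31-5p: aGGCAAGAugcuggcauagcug
Dnm3os, miR-199a-3p: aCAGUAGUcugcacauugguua
Dnm3os, miR-214-3p: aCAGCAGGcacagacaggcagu

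Counts of genes with a member peak stand beside 2.70% of all lncRNA genes, and those with any thapsigargin peak at an end beside 5.41%. Of 23 listed miRNA hosts, 16 were in the table. Of these 16, 3 had a member peak, namely Dleu2, Mir22hg and Dnm3os. H19, Meg3, Mir17hg and Mir155hg were among the 13 without a thapsigargin peak at an end. Other members that hold miRNA genes, such as Carmn, A330023F24Rik and Gm49890, were not among the 16, so the count depends on the names listed. In a broad list headed nuclear and imprinted lncRNAs, which also holds Oip5os1, 2 of 23 had a member peak. Hotairm1 had a thapsigargin peak that was also at a coding end. The Kcnq1ot1 peak, 949 bp wide, was centred 19 bp from the start of this imprinted antisense transcript, which silences neighbouring genes on the paternal chromosome. Oip5os1, known as Cyrano and as a decoy that leads to decay of miR-7, had 855 bp centred 89.0 bp from its start. Malat1, Neat1, Xist and Tug1 had no peak at an end in either list. A list of muscle lncRNAs names 23, of which 7 are in the table. Of these 7, Dubr had a member peak, of 716 bp and 68.5 bp from the start. No other gene of the 7 had a peak at an end. Carmn, a member with a DMSO peak, was not among the 7. A broad list headed p53 and stress lncRNAs has 15 genes in the table, among them Bvht, Rmst and Tunar. Of the 15, Trp53cor1 and Mir22hg had member peaks and Gas5 and Ptgs2os had peaks that were also at a coding end.

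The nearest coding gene of 12 members (3.58%) belonged to 1 of 6 lists of stress and muscle genes, against 168 of all 8619 peaks (1.95%). The rule moves members away from coding ends, so the 2 shares are drawn from different places, and the difference was not tested. A broad list headed integrated stress response regulators, which also holds Cdkn1a and Gadd45a, accounted for 6 of the 12 (1.79%, against 0.418% of all peaks). Cebpb and Gadd45a were each counted more than once among these 6. D730003I15Rik, 41.4 kb from the stress factor gene Atf3, had a peak of 1563 bp, centred 311 bp from its start. Gm14321 and Gm32513, 87.1 and 99.4 kb from Cebpb, which encodes a dimer partner of ATF4, had peaks of 1042 and 967 bp. The others were Trp53cor1 near Cdkn1a, and E230016M11Rik and Gm29928 near Gadd45a, the last with 922 bp at 65.1 kb. Of these 6, Trp53cor1 and E230016M11Rik had a DMSO peak, beside 9.25% of all thapsigargin peaks.

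The bZIP and circadian list gave 3 members (0.896%, against 0.464% of all peaks), Bach2os, 2410080I02Rik near Klf9 and Gm40477. The Gm40477 peak, of 615 bp, lay 37.5 kb from Fos. The ER stress and autophagy list gave 1 member (0.299%, against 0.278% of all peaks), Gm35417 near Edem1, a gene of ER-associated degradation. The Gm35417 peak, of 1838 bp, was centred 776.5 bp before the start of the lncRNA. The amino acid list gave the narrow Gm26812 peak near Slc7a5 (0.299%, against 0.371% of all peaks). The list of synthetases and translation factors gave 1700012D14Rik at 39.6 kb from Eif4g2 (0.299%, against 0.325% of all peaks). For these lists of 1 member each, the shares lay near those of all peaks and are not a result about the members. No member was nearest to any of 16 genes of skeletal muscle identity, such as Myod1 and Myog. These genes were nearest to 8 of all peaks (0.0928%), a share at which the members are too few to tell.

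The limit of 1 kb passes through a continuous spread of distances. Just inside it lay the peaks at Gm48837 (989.5 bp), Gm41934 (995.0 bp) and Gm41914 (995.5 bp), and just outside those at 4933401D09Rik (1009 bp), Gm40703 (1010 bp) and Gm44040 (1021 bp), of which the last had a DMSO peak. On the side of the coding ends, E230016M11Rik (1004 bp), Gm52210 (1010 bp from Golph3) and Gm40362 (1012 bp from Cbll1) were just inside the rule. The peaks at 1700001G11Rik (995 bp from Trim35), Gm32313 (940 bp from Cr1l) and 1110020A21Rik (918.5 bp from Ppm1b) were just outside it.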

How the data were processed

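ATF4 binding was measured by CUT&Tag in C2C12 cells. The authors deposited 1 peak list per treatment, with chromosome, start and end and no height, score or p-value. Per the submitters' processing notes, which assign no roles, the tools were MACS2 2.2.7.1, Bowtie2 and Trim Galore 0.6.10 and the genome build was mm10. The peak threshold is not given in the sources used here, nor is any control library or the way the 2 replicates were combined, so read depth is unknown and a longer or wider list may reflect depth as well as binding. Nothing in the labels says whether replicates were separate cultures.

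Peaks were joined to the RefSeq gene table of GRCm38.p6, the assembly that mm10 corresponds to, which gives gene starts and ends without strand. Strand came from the RefSeq promoter table, which holds 9520 of the 12697 lncRNA genes on chromosomes 1 to 19 and X. Distances were taken from the peak centre, overlap meant at least 1 bp, and coordinates count from 1. No genome was used, so motifs were searched in RefSeq promoter windows and not in whole peaks: 9 motifs, both strands, with the first listed window per gene. No statistical test was made.

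The rule named shared members in order of width, the 10 widest others, members of 11 gene lists, lncRNAs with 2 members or a miRNA, and the 3 peaks on each side of each limit. Genes outside this rule, such as those shown for a motif or for a DMSO peak outside the members, were chosen after their values were seen. The members and lists were chosen with earlier results of these data known. Alternatives were windows of 500 bp and 3 kb, other distances to coding ends, the peak edge, merged peaks, the wider part of each list, genes without Gm, Rik or LOC symbols and 3 other overlap rules. Computation was in Python 3.11.15 (pandas 2.3.3, numpy 2.4.6, matplotlib 3.10.9, scipy 1.17.1). The overlap and distance steps were tested on simulated data.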

Additional observations from a re-analysis of the deposited data

How the results depend on the processing

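No paired analysis was possible because each treatment has a single list, which also leaves no replicate to leave out. Of 35 alternative values, 23 stayed within the interval of the reported share or median, or within 1.5 times the reported count. The 335 peaks at 343 lncRNA genes became 558 at 581 with a window of 3 kb, 682 at 687 with coding ends ignored, 164 at 170 in the wider part of each list (4310 thapsigargin and 402 DMSO peaks) and 24 at 24 with Gm, Rik and LOC symbols left out, as the settings' construction implies. The median width of 1027 bp was 1343 bp in the wider part and 1211 bp without those symbols. The share over a DMSO peak, 8.36%, was 12.5% (3 of 24) without those symbols and 3.28% with peak centres within 100 bp. Read depth, which limits how many peaks could be called in either treatment, is unknown.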
